A study of Mus musculus with 24 samples.

Results

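Krüppel-like factors (KLFs) were followed across the livers of 24 male mice through 10 genes, Klf2, Klf3, Klf4, Klf6, Klf9, Klf10, Klf11, Klf12, Klf13 and Klf15, out of 37074 named genes on the array. Their probes were all those whose gene name matched one of these symbols exactly, 19 of 56605 probes on the array, and 17 of these were among the 32176 probes of the deposited table of normalized values. The genes were selected on measured values, the differences between the group means of these same arrays, so those differences are given as a description, without a p-value.

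The mice were C57bl/6J males of the third generation of 2 breeding lineages. The reference group (n = 9) came from the lineage supplemented with high-oleic sunflower oil (the oleic or control lineage) and ate a low-fat diet. The HFoleic group (n = 8) came from the same lineage and was challenged with an obesogenic diet, rich in fat and sucrose. The HFepa group (n = 7) received the same obesogenic diet but descended from mice given fish oil, a source of the omega-3 fatty acid eicosapentaenoic acid (EPA). No low-fat mice of the EPA lineage were analysed here, so HFepa and the reference group differed in diet, lineage and oil at once, and these cannot be told apart. HFoleic against reference compares the diets within 1 lineage, and HFepa against HFoleic compares the lineages under 1 diet. All mice were killed while fasting, 1 array was hybridised per mouse, and the age of the mice, the hour of death and the litters were not given in the sources used here.

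KLFs are transcription factors whose C-terminal zinc fingers bind GC-rich elements and CACCC boxes in promoters. The proteins differ mostly outside the fingers: Klf2 and Klf4 are chiefly activators, Klf3 and Klf12 are repressors that recruit the co-repressor CtBP, and Klf9, Klf10, Klf11 and Klf13 recruit Sin3A. In liver, Klf15 is known for its part in amino acid catabolism and gluconeogenesis during fasting, Klf10 for its daily rhythm, Klf6 for its response to injury, and Klf2 and Klf4 for their roles in the endothelium that lines the vessels and sinusoids.

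The 250 bases before the annotated start were taken from RefSeq (GRCm38.p6), where 9 of the 10 genes had a promoter window and Klf10 had none. The windows of Klf2 and Klf4 are shown because these genes varied together between mice, and that of Klf12 because its difference between the diets was the largest positive one, which is a description only. Each runs 5′ to 3′ along the gene's own strand, and capitals mark 4 searched motifs on either strand: the GC box GGGCGG, the CACCC box, the E-box CACGTG and a single exact form of the MEF2 site, the one that stands before Klf2.
Klf2, chr8:72318812-72319061, plus strand: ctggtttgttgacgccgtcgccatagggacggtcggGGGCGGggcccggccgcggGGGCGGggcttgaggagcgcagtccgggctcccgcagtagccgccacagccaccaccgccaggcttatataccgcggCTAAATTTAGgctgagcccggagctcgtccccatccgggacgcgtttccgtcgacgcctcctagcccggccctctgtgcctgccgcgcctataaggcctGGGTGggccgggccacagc
Klf4, chr4:55532476-55532725, minus strand: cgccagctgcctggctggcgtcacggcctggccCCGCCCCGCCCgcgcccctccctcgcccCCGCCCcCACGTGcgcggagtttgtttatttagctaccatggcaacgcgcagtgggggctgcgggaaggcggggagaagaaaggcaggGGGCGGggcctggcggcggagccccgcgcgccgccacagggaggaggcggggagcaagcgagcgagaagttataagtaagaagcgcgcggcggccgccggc
Klf12, chr14:100149797-100150046, minus strand: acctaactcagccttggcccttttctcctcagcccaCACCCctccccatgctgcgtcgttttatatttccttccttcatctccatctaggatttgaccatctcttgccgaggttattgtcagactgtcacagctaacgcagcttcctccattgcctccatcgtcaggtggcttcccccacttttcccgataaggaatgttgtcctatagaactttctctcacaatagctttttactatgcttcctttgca
The Klf2 window held 2 GC boxes, 1 CACCC box and 1 MEF2 site of this exact form, the kind of element through which the kinase ERK5 is known to switch on Klf2 in endothelium. That exact sequence occurred in 0.0396% of 32851 promoter windows of the same length and in no other of the 9, and other forms of the MEF2 site were not searched. The Klf4 window held 4 GC boxes, of which a pair overlapped, and 1 E-box, the element that the clock proteins bind. The Klf12 window held 1 CACCC box and none of the other motifs, and its GC content was 48%, against 71.2% for Klf2 and 74% for Klf4. Among the 9 windows, 7 held a GC box, against 32.7% of all windows, 6 a CACCC box, against 52%, and 4 an E-box, against 6.02%. A match gives the letters of the window and was not read as a bound site.

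Signal was checked on each array. Between 28804 and 34432 probes per array lay well above background, no spot was saturated, and all 17 probes of the KLFs in the table were well above background on all 24 arrays. The 2 probes outside it, of Klf10 and Klf13, were well above background on 2 and 5 arrays. Hepatocyte markers (Alb, Apoa1, Ttr, Cps1, Hnf4a) were all present, at a mean log2 signal of 15.92 to 16.25 per mouse. Reference replicate 5 stood apart on the first principal component (18.2% of the variance), at 80.7, followed by reference replicate 4 at 30.0, with the others between -12.5 and 9.01. In HFepa replicate 7 the 1 pancreatic marker in the table, Cela2a, reached 10.51, against 6.46 to 7.66 in the others.

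Klf2 and Klf4, the 2 activators known from endothelium, were higher in 6 of 7 HFepa mice than in any mouse of the other groups. HFepa replicate 5 was the exception for both genes. Klf2 (mm9, chr8:74845137-74845196) had a log2 signal of 9.31, 9.84 and 10.03 (lowest, median and highest) in the reference group, 9.37, 9.68 and 10.05 in HFoleic and 9.60, 10.37 and 10.57 in HFepa. The means were 9.74 ± 0.26 (SD, n = 9), 9.68 ± 0.23 (n = 8) and 10.30 ± 0.32 (n = 7). HFepa therefore lay 0.63 ± 0.13 (SE) above HFoleic on the log2 scale, a 1.54-fold difference, and 0.56 ± 0.13 above the reference group, whereas HFoleic and reference differed by -0.061 ± 0.12.

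Klf4, also one of the factors used to reprogram cells to pluripotency, had the largest difference of the 10 genes between the lineages. Its log2 signal (mm9, chr4:55540833-55540892) was 8.45, 9.38 and 9.59 in the reference group, 8.44, 8.77 and 9.41 in HFoleic and 8.88, 9.88 and 10.22 in HFepa. The means were 9.24 ± 0.35, 8.84 ± 0.30 and 9.78 ± 0.44. HFepa was above HFoleic by 0.94 ± 0.18, or 1.92-fold, and above reference by 0.54 ± 0.17, while HFoleic lay below reference by a difference of -0.40 ± 0.17. All 7 HFepa mice were above the HFoleic mean, and 1 of 8 HFoleic mice was above the reference mean. The groups overlapped for both genes, and the comparisons with HFepa share its 7 mice.

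Within slides 1, 2 and 3, HFepa minus HFoleic was 0.83, 0.35 and 0.69 for Klf2 and 1.24, 0.58 and 0.99 for Klf4. Neither gene was called in any comparison by the fit over all probes (adjusted p under 0.05), where HFepa minus HFoleic gave 0 calls in all with limma (percent called 0, with 2969 probes at an unadjusted p under 0.05, 0 calls by the methods' t-test and 2 under a stricter filter). Without HFepa replicate 5, the exception for both genes, limma called both in both comparisons with HFepa. The differences from HFoleic were then 0.74 (Klf2) and 1.09 (Klf4). Without reference replicate 8, limma called Klf4 between HFoleic and reference, at -0.50, and Klf2 between HFepa and reference, at 0.51. Without HFoleic replicate 5 it called Klf4 between HFepa and HFoleic, at 1.02. Nothing was read from these calls, since the same contrasts had chosen the genes.

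**Figure D1:**
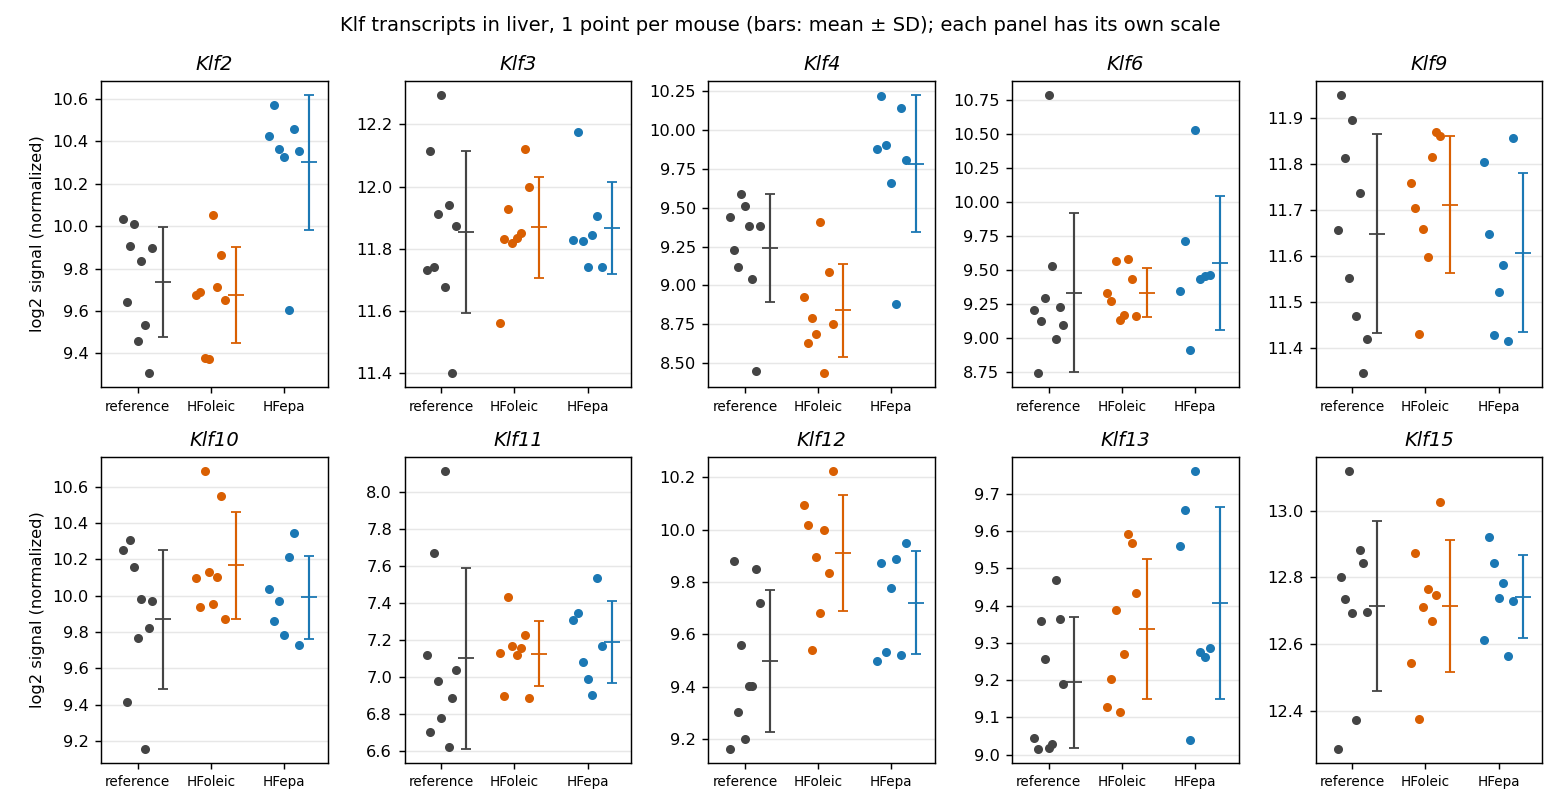
Normalized log2 signal (y axis) of the brightest probe of each KLF in every mouse, by group (x axis, reference n = 9, HFoleic n = 8, HFepa n = 7); points are mice and bars the mean ± SD, and each panel has its own scale. In the Klf2 and Klf4 panels 6 of 7 HFepa mice lie above all others, and the seventh is HFepa replicate 5, at 9.60 and 8.88.

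Endothelial markers were examined beside these genes, since in bulk liver fewer cells of a type and less RNA per cell cannot be told apart. All 9 markers (Pecam1, Cdh5, Kdr, Tek, Stab2, Lyve1, Clec4g, Eng and Emcn) were well above background on all arrays, and none was called. Their summed linear signal ranged from 13623 to 18064 in the reference group, 13916 to 20428 in HFoleic and 15913 to 20385 in HFepa. Their differences were above 0 for 9 of 9 between HFepa and HFoleic, from 0.035 to 0.27 on the log2 scale, and for 9 of 9 between HFepa and reference, from 0.0094 (Pecam1) to 0.33 (Clec4g). Over all probes, 51.6% and 51.5% were above 0 in these comparisons. This was not particular to endothelium, since markers of Kupffer cells and macrophages were above 0 for 5 of 6 and 6 of 6. Markers of red blood cells were above 0 for 0 of 3 in both. The endothelial targets reported for Klf2, Nos3 (nitric oxide synthase) and Thbd (thrombomodulin), differed between HFepa and HFoleic by 0.15 ± 0.091 (adjusted p = 0.64, limma) and 0.28 ± 0.17 (adjusted p = 0.629). Within groups, the mean of the endothelial markers had r = 0.0868 with Klf2 (permutation p = 0.685) and r = -0.0566 with Klf4 (permutation p = 0.792) over the 24 mice, a relation added after the data were seen. The mean of the hepatocyte markers, added likewise, had r = 0.343 with Klf2 (permutation p = 0.158) and r = 0.268 with Klf4 (permutation p = 0.302). For Kupffer cell and macrophage markers r was 0.164 (permutation p = 0.464) and -0.00795 (permutation p = 0.973). The part of cell composition in the group differences was not tested.

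Klf12, a CtBP-recruiting repressor, had the largest positive difference between diets of the 10 genes. Its brightest probe (mm9, chr14:100265567-100265626) read 9.16, 9.40 and 9.88 in the reference group, 9.54, 9.95 and 10.23 in HFoleic and 9.50, 9.78 and 9.95 in HFepa. All 8 HFoleic mice and all 7 HFepa mice were above the reference mean, and 5 of 8 HFoleic mice were above every reference mouse. The means were 9.50 ± 0.27, 9.91 ± 0.22 and 9.72 ± 0.20, so that HFoleic lay 0.41 ± 0.11 and HFepa 0.22 ± 0.11 above reference, and HFepa minus HFoleic was -0.19 ± 0.12. The other 3 Klf12 probes, taken from the 3′ towards the 5′ end of the gene, gave 0.33, 0.18 and 0.33 for HFoleic minus reference and 0.17, 0.15 and 0.25 for HFepa minus reference, all in the same direction. The difference between the diets was 0.39 on slide 1, 0.53 on slide 2 and 0.34 on slide 3.

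Across the 10 genes, 1 (Klf12) was called between HFoleic and reference, against a percent called of 6.59 over all 32176 probes (2122 probes, of which 1188 or 3.69% of all probes were higher, as Klf12 was, and 934 lower). Between HFepa and reference 0 of 10 were called, against 0.342% of all probes (110). No gene had groups that did not overlap, against 0.545%, 0.104% and 0.146% of all probes in HFoleic against reference, HFepa against reference and HFepa against HFoleic. The median difference over the 10 genes was 0.020, 0.17 and 0.046 in these comparisons, beside -0.000605, 0.00429 and 0.00435 over all probes. These counts came from the contrasts that chose the genes, and nothing was read from them. The call of Klf12 was lost without HFoleic replicate 1, HFoleic replicate 8 or reference replicate 1, at differences of 0.39, 0.37 and 0.37, and with the clock score (the mean of 7 clock genes) as a covariate, at 0.29, and with the methods' t-test. It was kept with the mean of its 4 probes, at 0.32.

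**Figure D2:**
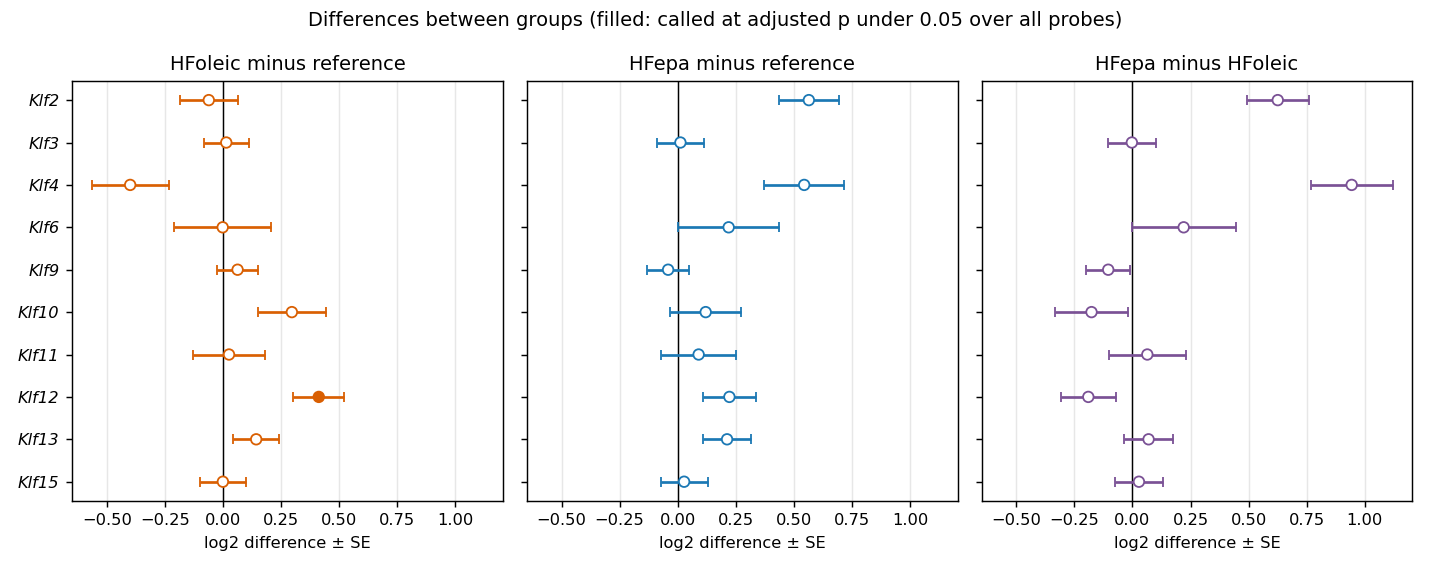
Log2 difference between groups (x axis) of the brightest probe of each KLF (y axis), 1 panel per comparison; points are differences of group means, bars their standard errors, and filled points were called by limma over all probes. Klf2 and Klf4 lie right of 0 in both panels with HFepa (0.54 to 0.94), and the only filled point is Klf12 between HFoleic and reference, at 0.41. The fill is a description only, since the same contrasts had chosen the genes.

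Klf3, the other CtBP-recruiting repressor, had group means closer together than the spread between mice. Its log2 signal ran from 11.40 to 12.29 in the reference group (median 11.87), 11.56 to 12.12 in HFoleic (11.84) and 11.74 to 12.18 in HFepa (11.83). The differences were 0.014 ± 0.096 for HFoleic and 0.012 ± 0.10 for HFepa against reference. Its other 2 probes gave 0.10 and -0.13 for HFoleic minus reference, in opposite directions.

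Of the 4 factors that recruit Sin3A, Klf10 had the largest difference between diets. Klf10, an early response gene of TGF-beta, read 9.16, 9.97 and 10.31 in the reference group, 9.87 (lowest) and 10.69 (highest) in HFoleic, with a mean of 10.17, and 9.73, 9.97 and 10.35 in HFepa. Of the 8 HFoleic mice, 5 were above the reference median and 2 above every reference mouse, and the lowest equalled the reference mean of 9.87 to 2 decimals. The differences from reference were 0.30 ± 0.15 (HFoleic) and 0.12 ± 0.15 (HFepa). These were uneven between slides, each with 2 or 3 mice of a group. For HFoleic, slide 1 gave 0.80, whereas slide 2 gave -0.16 and slide 3 gave 0.17. For HFepa the same slides gave 0.71, -0.034 and -0.34, so neither difference kept its sign on every slide. Klf9, a target of glucocorticoid and thyroid hormones, differed by 0.063 ± 0.088 and -0.041 ± 0.092, with medians of 11.66, 11.73 and 11.58 in reference, HFoleic and HFepa. Klf11, which is closely related to Klf10, differed by 0.026 ± 0.16 and 0.090 ± 0.16, and its spread was widest in the reference group, from 6.62 to 8.11. Without reference replicate 6, the highest of that group, the differences were 0.15 and 0.22, and without reference replicate 7, the lowest, they were -0.033 and 0.031. Klf13 differed by 0.14 ± 0.098 and 0.21 ± 0.10, with 3 of 7 HFepa mice and 2 of 8 HFoleic mice above every reference mouse. The brightest Klf13 probe is annotated on the strand opposite to the gene, so the transcript it reads is not settled, and the probe on the gene's strand gave 0.17 and 0.19.

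Klf15, the fasting-related factor of amino acid and glucose metabolism, had medians of 12.73 in reference, 12.73 in HFoleic and 12.74 in HFepa. It differed from reference by -0.00011 ± 0.098 in HFoleic and by 0.028 ± 0.10 in HFepa, and the ranges of HFoleic (12.37 to 13.03) and HFepa (12.56 to 12.92) lay inside that of the reference group (12.29 to 13.12). Klf6 also differed little between group means, by -0.00095 ± 0.21 and 0.22 ± 0.22, but 2 mice stood out, reference replicate 5 at 10.79 and HFepa replicate 4 at 10.53, against 8.74 to 9.71 in all others. In reference replicate 5, the mean log2 signal of the stellate cell markers was 9.22 and of the cholangiocyte markers 7.80. The other reference mice had 7.45 to 8.50 and 6.15 to 6.85, and the 8.50 was that of replicate 4, whose Klf6 was 9.29. In HFepa replicate 4 the 2 means were 8.41 and 6.60, against 7.67 to 8.03 and 6.33 to 6.69 in the other HFepa mice. Its cholangiocyte markers thus lay within the range of its group. The part of these cells in the Klf6 values was not tested. Without reference replicate 5, Klf6 differed from reference by 0.18 in HFoleic and 0.40 in HFepa.

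Variation between mice of the same group was not used to choose the genes, and was therefore tested. After removal of the group means, Klf2 and Klf4 rose and fell together in the 24 livers, with r = 0.787 (permutation p = 0.00018, two-sided, adjusted p = 0.0081 over 45 pairs) and rho = 0.73 (permutation p = 0.00015, adjusted p = 0.00675). The r was 0.665 in the reference group, 0.641 in HFoleic and 0.973 in HFepa. The same mouse was lowest for both genes in the reference group (replicate 8) and in HFepa (replicate 5), and the same mouse was highest for both in HFoleic (replicate 5) and in HFepa (replicate 2). Klf4 was the gene with the highest r with Klf2 among 20556 genes compared, and Klf2 was the gene with the highest r with Klf4. Without the 2 mice farthest from the Klf2 median, HFepa replicate 5 and reference replicate 8, r was 0.57 and no longer passed (adjusted permutation p = 0.213), so the call rested on these mice. It was also lost when either was left out alone, at r = 0.667 (adjusted permutation p = 0.0688) and r = 0.747 (adjusted permutation p = 0.0639). With the means of each group on each slide removed, r was 0.83, with an adjusted permutation p of 0.422 among the permutations left within groups of a slide.

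**Figure D3:**
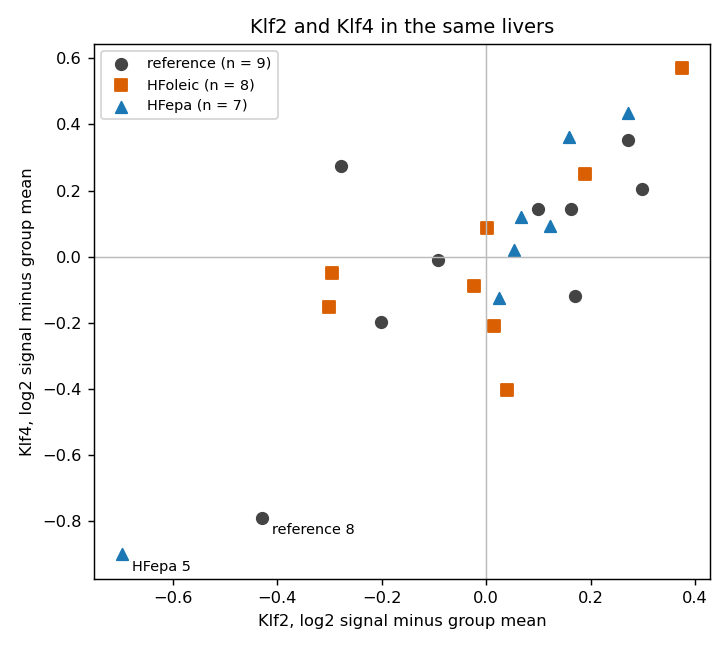
Klf4 (y axis) against Klf2 (x axis), each as log2 signal minus the mean of the mouse's own group; points are mice (reference n = 9, HFoleic n = 8, HFepa n = 7). The points run from lower left to upper right (r = 0.787), and the 2 named mice at the lower left are those without which r was 0.57.

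The other 44 pairs did not pass by Pearson's r. Klf10 and Klf11, both known as TGF-beta-inducible early genes, had r = 0.579 (permutation p = 0.0122, adjusted p = 0.219) and rho = 0.629 (permutation p = 0.00186, adjusted p = 0.0419), with r = 0.596, 0.878 and 0.304 in reference, HFoleic and HFepa, and r = 0.484 without the 2 mice farthest on Klf10. Klf11 and Klf15 ran in opposite directions, at r = -0.556 (adjusted permutation p = 0.219), and Klf12 and Klf15 together, at r = 0.525 (adjusted permutation p = 0.219). Between Klf2 or Klf4 and the remaining factors, the r of largest size was that of Klf3 with Klf4, at 0.419 (adjusted permutation p = 0.263).

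**Figure D4:**
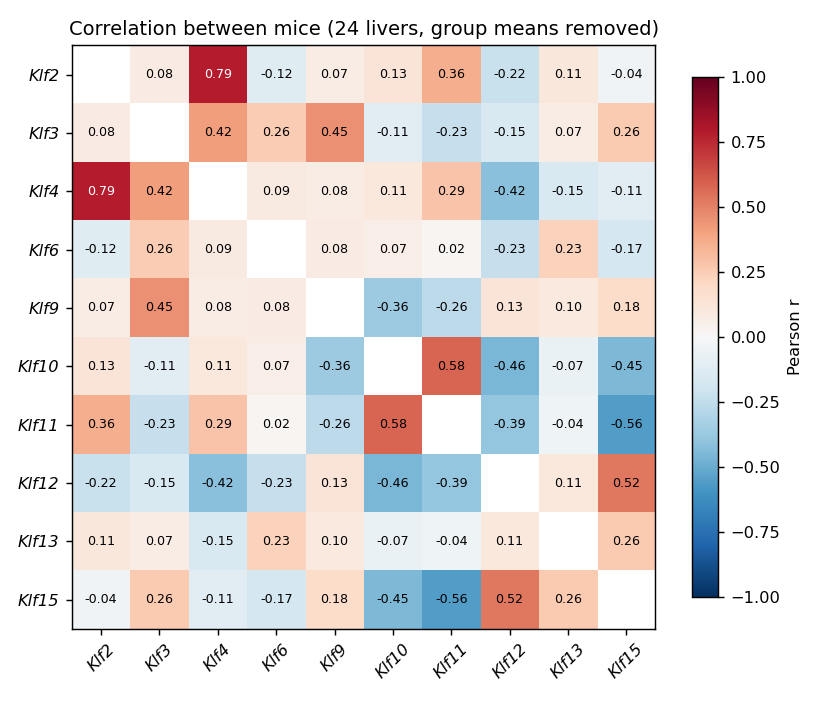
Pearson r between the 10 KLFs across 24 livers after removal of the group means; rows and columns are genes and the colour runs from -1 (blue) to 1 (red). The darkest square is Klf2 with Klf4 at 0.79, followed by Klf10 with Klf11 at 0.58 and Klf11 with Klf15 at -0.56.

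The genes most like each KLF by the same group-centred r were given as a description, without a p-value, over 24 arrays that share their normalization. For Klf2 they were Klf4, Sav1 (a Hippo pathway scaffold, r = 0.776) and Bmp2 (a bone morphogenetic protein, r = 0.744). For Klf4 they were Klf2, Pck1 (the gluconeogenic enzyme, r = 0.78) and Mbnl1 (a splicing factor, r = 0.744). Klf15 was nearest to Tsc22d3 (a glucocorticoid-induced leucine zipper protein, r = 0.866), with Gulo, an enzyme of vitamin C synthesis, at 0.763. Klf12 was nearest to Nit2 (r = 0.894), the steroid dehydrogenase Hsd3b3 (0.888) and the succinate receptor Sucnr1 (0.885). Klf6 was nearest to the adaptor Blnk (r = 0.928), the non-muscle myosin Myh9 (0.908) and the calpain subunit Capns1 (0.901), and these were 0.852, 0.789 and 0.773 without reference replicate 5. Klf13, read by the probe annotated on the opposite strand, was nearest to Tanc2 (0.851). Klf11 was nearest among named genes to the kinase Map3k11 (0.822), Klf3 to Yipf4 (0.837), Klf9 to Uvssa (0.739) and Klf10 to Ccdc160 (0.722).

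Several KLFs are known to cycle over the day in liver, so each was set against the mean of 7 clock genes of the Per phase (Dbp, Nr1d1, Nr1d2, Per1, Per2, Per3 and Tef), again within groups. That clock score ranged from 8.99 to 10.46 in the reference group, 9.58 to 10.87 in HFoleic and 9.29 to 11.14 in HFepa, so it spread widely among mice of a group. No KLF passed over the family of 10. The strongest were Klf12, at r = 0.485 (permutation p = 0.0187, adjusted p = 0.166; rho = 0.515, permutation p = 0.0136, adjusted p = 0.107), and Klf13, at r = 0.461 (permutation p = 0.0413, adjusted p = 0.166; rho = 0.473, permutation p = 0.0275, adjusted p = 0.107), and without the 2 mice farthest on the gene r was 0.398 and 0.327. Without HFepa replicate 2 both passed, at r = 0.563 and 0.598 (adjusted permutation p = 0.0328 each). The Klf13 values are those of the probe annotated on the opposite strand. Klf4 and Klf11 ran against the score, at r = -0.409 and -0.388 (adjusted permutation p = 0.166 each). Their rho was -0.437 and -0.423 (adjusted permutation p = 0.107 each). Without the 2 mice farthest on the gene their r was -0.333 and -0.399. With the score as a covariate, the difference of Klf12 between HFoleic and reference was 0.29 and that of Klf4 was -0.24, in place of 0.41 and -0.40. The score itself differed between the groups, with means of 9.69, 10.26 and 10.06 in reference, HFoleic and HFepa. The covariate can therefore take up part of a difference between the diets. Between HFoleic and reference, 6 of the 7 clock genes differed by more than 0 and Per1 by less, at -0.86 ± 0.36. Of the clock genes themselves, 1 of 7 was called between HFoleic and reference, against 6.59% of all probes (Nr1d2, 0.58 ± 0.14, adjusted p = 0.011, limma) and none in the comparisons with HFepa.

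The rest of the family gave no call between the groups. Of 7 further Klf genes, Klf1, Klf7 and Klf16 were in the table and none was called, with differences from -0.11 to 0.23 against reference. Klf5, Klf8, Klf14 and Klf17 were outside it, well above background on at most 2 arrays. Of the related Sp factors, 8 of 9 were in the table (Sp1 to Sp7 and Sp9) and none was called, with differences from -0.16 to 0.24 between HFoleic and reference, from -0.11 to 0.025 between HFepa and reference and from -0.34 to 0.12 between HFepa and HFoleic. The brightest Sp2 probe came nearest, at 0.17 ± 0.054 between HFoleic and reference (adjusted p = 0.0606, limma), but the other Sp2 probe gave -0.10 ± 0.065. Between HFepa and HFoleic the brightest Sp2 probe gave -0.27 ± 0.057 (adjusted p = 0.117, limma), and the other 0.057 ± 0.069.

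Genes around the KLFs were described from lists. Of 10 co-repressors and co-activators (Sin3a, Sin3b, Sap30, Hdac1, Hdac2, Ctbp1, Ctbp2, Ep300, Crebbp and Kat2b) none was called, with differences from -0.16 to 0.22 against reference. Of 11 genes upstream of the KLFs, 2 were called between HFoleic and reference, where 6.59% of all probes were: the glucocorticoid receptor Nr3c1 was higher by 0.36 ± 0.071 (adjusted p = 0.00389, limma) and Mef2d, a factor of the MEF2 family, was lower, by -0.50 ± 0.13 (adjusted p = 0.0204). Between HFepa and HFoleic the 2 kinases of the ERK5 cascade differed by 0.064 ± 0.076 (Map2k5) and 0.20 ± 0.14 (Mapk7), and none of the 11 was called. None of 5 ubiquitin ligases that act on KLFs was called.

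A list of 10 reported targets of KLFs was chosen with earlier results of these data known. The paper reports lower Pck1 and Ppargc1a in HFoleic on the arrays, so the count of calls in this list is a description only. By RT-qPCR the paper marks the lower Pck1 in HFoleic as significant, but not a change of Ppargc1a. Of the 10, 4 were called between HFoleic and reference, all lower, against 2.9% of all probes called lower, and the median over the 10 was -0.26. These were Pck1 (-0.74 ± 0.11, adjusted p = 0.000688, limma), Tat (-0.63 ± 0.14, adjusted p = 0.00903), Ppargc1a (-0.54 ± 0.15, adjusted p = 0.0318) and G6pc (-0.52 ± 0.12, adjusted p = 0.00944), which are genes of gluconeogenesis and amino acid breakdown in the fasted liver. Klf15, of which several of them are reported targets, differed by -0.00011 in the same comparison. Its protein was not measured here, and its part in the differences of these targets was not tested. Between HFepa and reference the median was -0.28 and none was called, and Pck1 differed by -0.29 ± 0.11 (adjusted p = 0.259). Between HFepa and HFoleic Pck1 differed by 0.44 ± 0.12 (adjusted p = 0.214).

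Glucocorticoids and early growth signals are known to induce several KLFs, so their other targets were counted too. Of 6 glucocorticoid-responsive genes, 1 was called between HFoleic and reference, against 6.59% of all probes, the receptor's co-chaperone Fkbp5, lower at -0.50 ± 0.14 (adjusted p = 0.0302, limma), and none of 9 immediate early genes or of 4 clock genes of the Bmal1 phase. Of those 6 genes, 5 had differences below 0 and 1 above. The largest were those of the metallothioneins Mt1 (-1.46 ± 0.47, adjusted p = 0.0636, limma) and Mt2 (-1.44 ± 0.56, adjusted p = 0.135), which were not called. Of the cell type markers, 1 of 5 for hepatocytes, 1 of 5 for stellate cells and 1 of 4 for cholangiocytes were called in the same comparison, against 6.59% of all probes. These were Cps1 (-0.89 ± 0.15, adjusted p = 0.00182, limma), Lrat (0.56 ± 0.10, adjusted p = 0.00161) and Sox9 (-0.65 ± 0.18, adjusted p = 0.0299). In these 3 lists, 2, 2 and 0 markers were above 0, and 3, 3 and 4 below. No marker of Kupffer cells, T and B cells, red blood cells, adipocytes or the pancreas was called there. No gene of any list was called in either comparison with HFepa.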

How the data were processed

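RNA from the liver of 24 mice was measured with 1 Agilent mouse expression array in 1 colour per mouse. The authors deposited the scanner output (Agilent Feature Extraction 10.10.1.1, per the submitters' processing notes), whose median, mean and processed signals are intensities per spot. The authors deposited their processed values as well, the median signals after a filter and quantile normalization on the log2 scale, with 2550 empty cells, which left single values out of a fit. The filter was not given in the sources used here. This log2 table gave the values of the report, and a gene was represented by its probe with the highest mean over all arrays. Levels of different probes were not compared. Probe positions are those of the array annotation (mm9), and promoters those of RefSeq (GRCm38.p6).

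The sample labels gave each mouse its group and replicate number. A group means model was fitted to all 24 arrays with limma 3.58.1 (R 4.3.3), and p-values were adjusted (Benjamini-Hochberg) over all 32176 probes of a comparison and called under 0.05. Correlations used values centred within group and 100000 permutations of mice within groups, two-sided. The KLFs and the gene lists were chosen with earlier results of these data known, and relations with lists other than the Per-phase clock genes were added after the data were seen. The fit and the permutations were tested on simulated data. The number of arrays limits the precision, and the labels do not say whether mice of a group were littermates, so p-values measure only the spread between these mice. All 10 KLFs were named, with all family members in the table. From a list, the genes called by limma were named, so a gene with a larger difference and no call could go unnamed. Mt1 and Mt2 were named for the size of their differences. The endothelial targets, the ERK5 kinases and the genes of a clock or marker list were named for their role after their values were seen. Alternatives were the scanner's median and processed signals, normexp background correction, no filter and a stricter filter on dim probes, the methods' t-test, blocks for slide, slide row and replicate number, the clock score as a covariate, the mean of all probes and each array left out.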

Additional observations from a re-analysis of the deposited data

Results flagged for a closer look

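Among 30 sets of values (10 KLFs in 3 groups), 5 held a mouse whose gap to its neighbour was large for the range of its group by Dixon's criterion, which chance passes in about 1 of 20 sets. Klf2 in HFepa replicate 5 was 9.60 on the log2 scale, against 10.33 in the next mouse of its group. Klf4 in the same mouse was 8.88, against 9.66 in the next. Klf4 in reference replicate 8 was 8.45, against 9.04 in the next. Klf3 in HFepa replicate 2 was the highest of its group, at 12.18, against 11.91. Klf6 in reference replicate 5 was the highest of its group, at 10.79, against 9.53, in the array that also stood apart over all probes.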

How the results depend on the processing

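None of 1050 alternative values of the differences of single KLFs moved by more than 1 SD between mice. That SD was 0.18 (Klf9) to 0.46 (Klf6), a wide margin within which a small difference could change sign. For HFoleic minus reference, Klf11 ran from -0.035 to 0.17 over the processing alternatives, and Klf15 from -0.077 to 0.047. Between HFoleic and reference, the 2122 probes called fell to 792 with the clock score as a covariate, a score that itself differed between these groups. The 1 KLF called (Klf12) fell to 0 with that covariate and with the methods' t-test. Between HFepa and reference, the 110 probes called became 60 with the processed signal, 0 without the filter on dim probes, 0 with the methods' t-test and 3 with the clock score. There, 1 KLF (Klf2) was called with the scanner's median signal, with a stricter filter and with a block for the row on the slide, against 0 in the report. Nothing was read from calls of KLFs under any alternative, since the same contrasts had chosen the genes. Between HFepa and HFoleic, the stricter filter gave 2 probes against 0. The pairs of KLFs correlated between mice, 1 in the report, were 2 by Spearman's rank correlation, 0 after centring within group and slide and 0 without the 2 farthest mice, and the KLFs correlated with the clock score were 1 (Klf11, r = -0.51) after centring within group and slide, against 0.

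Leaving out each array in turn (24 fits) gave 1558 to 2955 probes, 0 to 2 KLFs and a median difference over the KLFs of 0.0037 to 0.082 for HFoleic minus reference. For HFepa minus reference it gave 0 to 467 probes, 0 to 2 KLFs and 0.10 to 0.20, and for HFepa minus HFoleic 0 to 12 probes, 0 to 2 KLFs and 0.013 to 0.056. Pairs of KLFs ranged from 0 to 2 and relations with the clock score from 0 to 2. The causes of these changes were not tested.

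Mice with the same replicate number did not deviate together (r of -0.28 to 0.34 over 22 pairs, 3 of them above 0.1), so they share only a number. With the replicate number as a block, 1668, 84 and 0 probes and 1, 0 and 0 KLFs were called in HFoleic minus reference, HFepa minus reference and HFepa minus HFoleic.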

Other observations

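Each KLF was also set, within groups, against the mean log2 signal of 6 further lists (10 relations per list, adjusted within the list), a choice made after the data were seen. None passed by Pearson's r. Klf11 ran against the glucocorticoid-responsive genes, at r = -0.569 (adjusted permutation p = 0.0801) and rho = -0.628 (adjusted permutation p = 0.0234). Klf13 ran with the endothelial markers, at r = 0.547 (adjusted permutation p = 0.0541) and rho = 0.603 (adjusted permutation p = 0.0333), through the probe annotated on the opposite strand.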
